A study of Mus musculus with 8 samples.

Results

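This account follows 32 mouse genes of glycolysis and of the response to low oxygen through an experiment on ethanol in neural stem cells. The genes were given as a list of symbols, and each was read from the probe set that carries only its symbol, the brightest one over all arrays where there were several. Of the 32 genes, 28 had such a probe set, among 18193 genes on the array. Gapdh, the 29th gene with a signal, was represented only by control probe sets and is described apart, and Gpi1, Eno1 and Bnip3l were not analysed here. Of the other 28 genes, 25 passed the filter on low signals that 10916 genes passed, and P4ha2, Ndrg1 and Ankrd37 did not.

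NS5 cells, mouse neural stem cells labelled as brain tissue of age E11.5, spent 24 h after plating in EGF and FGF2 and were starved of growth factors for 4 h in every group. They were then held for 48 h in FGF2, in FGF2 with ethanol at 400 mg/dl, in TGF-beta1, or in TGF-beta1 with ethanol at 400 mg/dl. Each of these 4 groups has 2 arrays and is called here by its label. Either factor is labelled at 10 ng per ul, and the values cannot check that unit. FGF2 is a mitogen of neural stem cells, and TGF-beta1 acts on transcription through Smad proteins. Nothing in the labels tells whether replicates came from separate cultures, so p-values measure the spread between these samples, which may be technical. Levels below are MAS5 signals, linear intensities that the authors scaled to a common target on every array.

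Glycolysis splits glucose to pyruvate in the cytosol, and lactate dehydrogenase turns pyruvate into lactate where it does not enter the mitochondrion. When oxygen is short, prolyl hydroxylases no longer mark the alpha subunits of the transcription factor HIF for destruction, and HIF raises glycolytic enzymes, glucose uptake, vessel growth factors, mitophagy proteins and its own hydroxylases. Neural stem and progenitor cells are known for a strong glycolytic metabolism. HIF binds a short core, written ACGTG or alternatively GCGTG, in the hypoxia response elements of its target genes.

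That core was common in the promoters of these genes. RefSeq promoter windows of 300 bases (GRCm38.p6, 250 before and 50 after a start) were at hand for 30 of the 32 genes, and 28 of these had the core on either strand in at least 1 window, as did 46.7% of all 27025 genes in the same table. Per window the core was in 37 of 46, against 43.8% of all windows, with no match for base composition. Below are the 250 bases before the first listed start of Bnip3, the gene whose ethanol arrays all lay above the others, of Pfkfb3, which had the highest average ethanol difference, and of Hk2, which had the lowest. The stretches are chr7:138909507-138909756 for Bnip3, chr2:11553930-11554179 for Pfkfb3 and chr6:82774455-82774704 for Hk2, all on the minus strand. Each runs 5′ to 3′ on the gene's strand, and capitals mark the core on either strand. Read from the other strand, ACGTG appears as CACGT, while for GCGTG the letters are CACGC.
Bnip3: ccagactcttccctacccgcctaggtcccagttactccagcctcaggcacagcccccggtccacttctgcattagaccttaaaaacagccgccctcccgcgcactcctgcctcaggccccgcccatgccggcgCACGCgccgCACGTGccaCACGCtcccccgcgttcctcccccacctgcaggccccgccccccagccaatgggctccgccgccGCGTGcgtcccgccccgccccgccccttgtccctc
Pfkfb3: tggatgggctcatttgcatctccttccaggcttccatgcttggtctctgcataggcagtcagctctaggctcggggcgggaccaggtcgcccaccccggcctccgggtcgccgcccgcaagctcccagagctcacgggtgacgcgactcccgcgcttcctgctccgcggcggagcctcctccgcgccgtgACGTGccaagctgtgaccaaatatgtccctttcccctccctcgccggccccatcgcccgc
Hk2: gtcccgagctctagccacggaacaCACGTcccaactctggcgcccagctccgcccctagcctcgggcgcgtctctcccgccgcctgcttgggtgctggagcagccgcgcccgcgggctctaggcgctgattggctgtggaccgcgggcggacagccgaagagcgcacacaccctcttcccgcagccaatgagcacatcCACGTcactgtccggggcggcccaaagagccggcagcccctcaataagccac
Bnip3 had 5 matches, whose first letters lie 117, 108, 107, 99 and 35 bases before the start, the pair at 108 and 107 being the 2 strands of CACGTG. Pfkfb3 had 1 match in the stretch shown, at 60 bases, while the window at its other listed start held 4. Hk2 had 2, at 226 and 52. Windows with 5 or more matches made up 1.66% of all windows and 6.52% of those of the list (3 of 46), among them a window of Ldha with 7. A match is a description of the letters, not evidence of binding.

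Some facts of the whole series touch every result below. Neural stem markers were present on all arrays, with Sox2 between 6018 and 12161 and Nes between 367 and 1254, while Prom1 did not pass the signal filter. The summed signal of 6 endothelial markers was 109 to 315, that of 6 microglial markers 122 to 349, and that of 10 neural stem markers 63860 or more. The sum was 20470 to 42050 for 6 astrocyte markers, 15880 to 25950 for 6 oligodendrocyte lineage markers and, for 8 neuronal markers, 5633 to 11670 without ethanol and 9030 to 13920 with it. By limma 1 of 6 neuronal markers tested, Dcx, was higher with ethanol within TGF-beta1 (2.70 ± 0.52 on the log2 scale, adjusted p = 0.0488). With the replicate number added to the model, 0 genes had an adjusted p under 0.05 there. The astrocyte marker Gfap had 3.69 with ethanol within FGF2 (95% interval 0.96 to 6.42, adjusted p = 0.428 by limma), the highest of 6 astrocyte markers. Of these 6, 4 lay above 0 there and 2 below, with a median of 0.18 and a lowest value of -0.58. The part of such markers in the results was not tested. Fn1, a matrix gene that TGF-beta1 induces, was at 119.7 and 139 with FGF2 alone, against 3015 and 4109 with TGF-beta1 alone. On the ethanol arrays labelled replicate 1 it went against the label, at 6828 with FGF2 and at 124 with TGF-beta1. Pmepa1, another target of TGF-beta1, was at 8198 and 1081 on these arrays, against 934.7 and 548.1 with FGF2 alone, and 8093 and 7315 where TGF-beta1 was given alone. Whether the labels of these 2 arrays were exchanged was not tested. Every array stays in its labelled group here. An exchange would leave the fold changes averaged over both growth factors as they are, but would alter all comparisons within a growth factor with ethanol, the interaction and the growth factor comparison with ethanol. The SE, interval and p of every comparison rest on the spread within all 4 groups. An exchange would alter these too, also for the average. Values without the 2 arrays are given where they lose a p under 0.05 or move the difference described by over 1.5 times. This holds for tested genes of the list. Each ethanol group then has 1 array, so the spread within groups is measured on the arrays without ethanol alone. The values of Dcx and Gfap each use an array of this pair and are not given without it. Over 9 genes of G2 and mitosis the median lay 0.45 to 2.16 log2 units above its own mean over the arrays without ethanol and 0.98 to 2.23 below it with ethanol. In bulk RNA, fewer cells in a state and less RNA per cell cannot be told apart.

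The first question was whether ethanol altered these genes. None of the 25 genes tested passed an adjusted p of 0.05 by limma in any of 6 comparisons: ethanol within FGF2, within TGF-beta1 and averaged over both, the difference between the ethanol effects (the interaction), and the growth factors set against each other, once in the absence and once in the presence of ethanol. Of all genes tested, 1.99% passed in the ethanol average, 1.19% within TGF-beta1 (0.0733% higher and 1.12% lower), and 0% in each of the other 4. Unadjusted p-values under 0.05 were held by 1 gene of the list in the average (10.8% of all genes), by 2 within FGF2 (8.3%), by 2 within TGF-beta1 (9.48%), by 1 in the interaction (4.43%), by 1 for TGF-beta1 against FGF2 in the absence of ethanol (4.97%) and by 0 in its presence (2.64%). Without the 2 ethanol arrays labelled replicate 1 these counts were, in the same order, 3 (10.5% of all genes), 2 (5.61%), 1 (8.61%), 1 (1.94%), 3 (7.06%) and 4 (5.07%).

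In the ethanol average, 15 of the 25 genes lay above 0 and 10 below, where 54% of all genes tested lay above. The median log2 fold change was 0.03, the same median as over all genes tested (0.03). Fold changes are on the scale of log2(signal + 23.68), which understates changes of dim genes. The 95% interval of the average stayed inside a 2-fold change in both directions for 17 genes, 12 of 16 in glycolysis and pyruvate metabolism and 5 of 9 in the hypoxia response. It reached past 2-fold for Hk2, Pfkp, Pfkfb3, Tpi1, Vegfa, Adm, P4ha1 and Bnip3, so for these the arrays do not settle the size. Without the 2 ethanol arrays labelled replicate 1 it was again inside 2-fold for 17 genes, with Slc2a1 and Hk1 reaching past it in place of Adm and P4ha1.

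**Figure D1:**
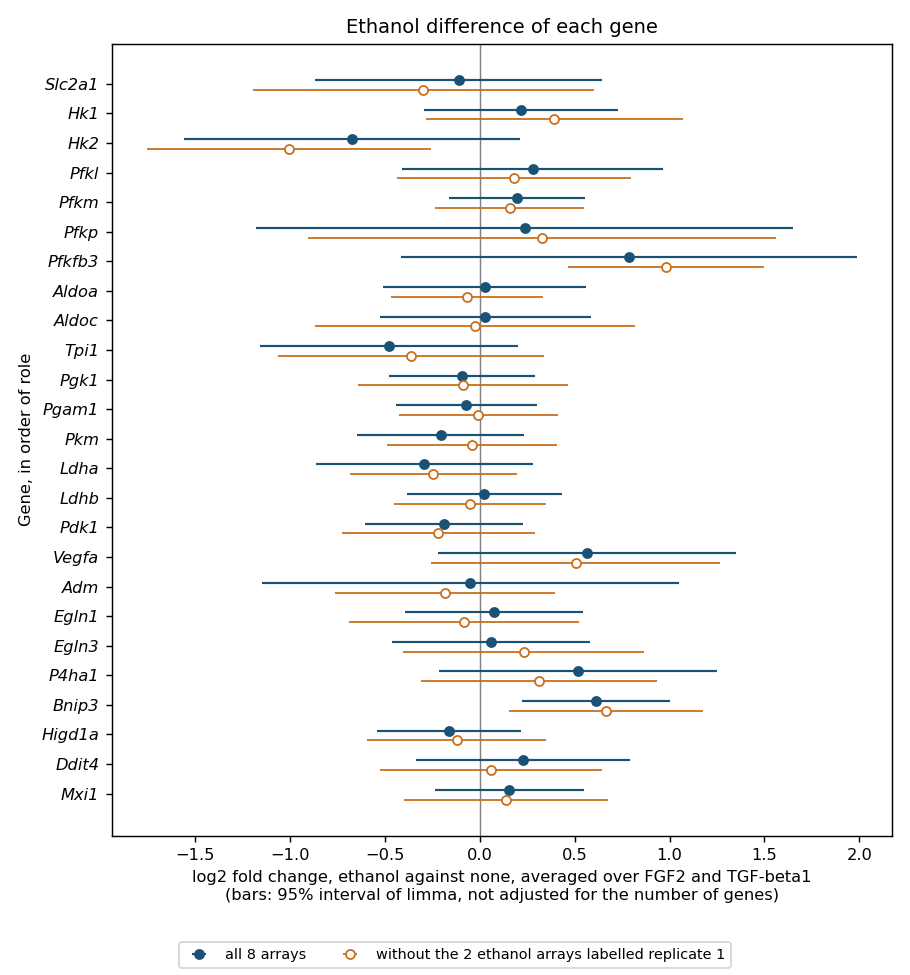
Log2 fold change of each of the 25 genes with ethanol against none, averaged over both growth factors (x axis), with 95% intervals from limma that are not adjusted for the number of genes, for all 8 arrays (filled) and without the 2 ethanol arrays labelled replicate 1 (open). Most intervals span 0 in both fits. Those of Bnip3 exclude 0 in both, and those of Hk2 and Pfkfb3 do so without the 2 arrays. In that fit the spread within groups is measured on the arrays without ethanol alone.

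Bnip3, on chromosome 7, encodes a mitochondrial outer membrane protein that marks mitochondria for mitophagy. Its signal was 657 and 929 in FGF2, 1169.9 and 1319.7 in Ethanol and FGF2, 808 and 786 in TGF-beta1, and 1181 and 1210.1 in Ethanol and TGF-beta1 (replicates 1 and 2). All 4 ethanol arrays lay above all 4 arrays without ethanol, and the growth factors gave like values. Bnip3 was the 1 gene of the 25 whose 4 ethanol arrays did not overlap the others, where 7.43% of all genes tested did not overlap (2.98% higher and 4.45% lower). The log2 fold change was 0.61 ± 0.17 (SE, 1.53-fold, 95% interval 0.22 to 1.00), with an unadjusted p of 0.00608 and an adjusted p of 0.162 by limma, short of the threshold. It was 0.65 ± 0.24 within FGF2 and 0.57 ± 0.24 within TGF-beta1, with an interaction of -0.08 ± 0.34. Without the 2 ethanol arrays labelled replicate 1 these were 0.74, 0.59 and -0.15, from 1 ethanol array in each growth factor. Without these arrays the average was 0.66 ± 0.21 (adjusted p = 0.347 by limma). The array carries 1 probe set for Bnip3, so no other probe set could be set beside it.

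**Figure D2:**
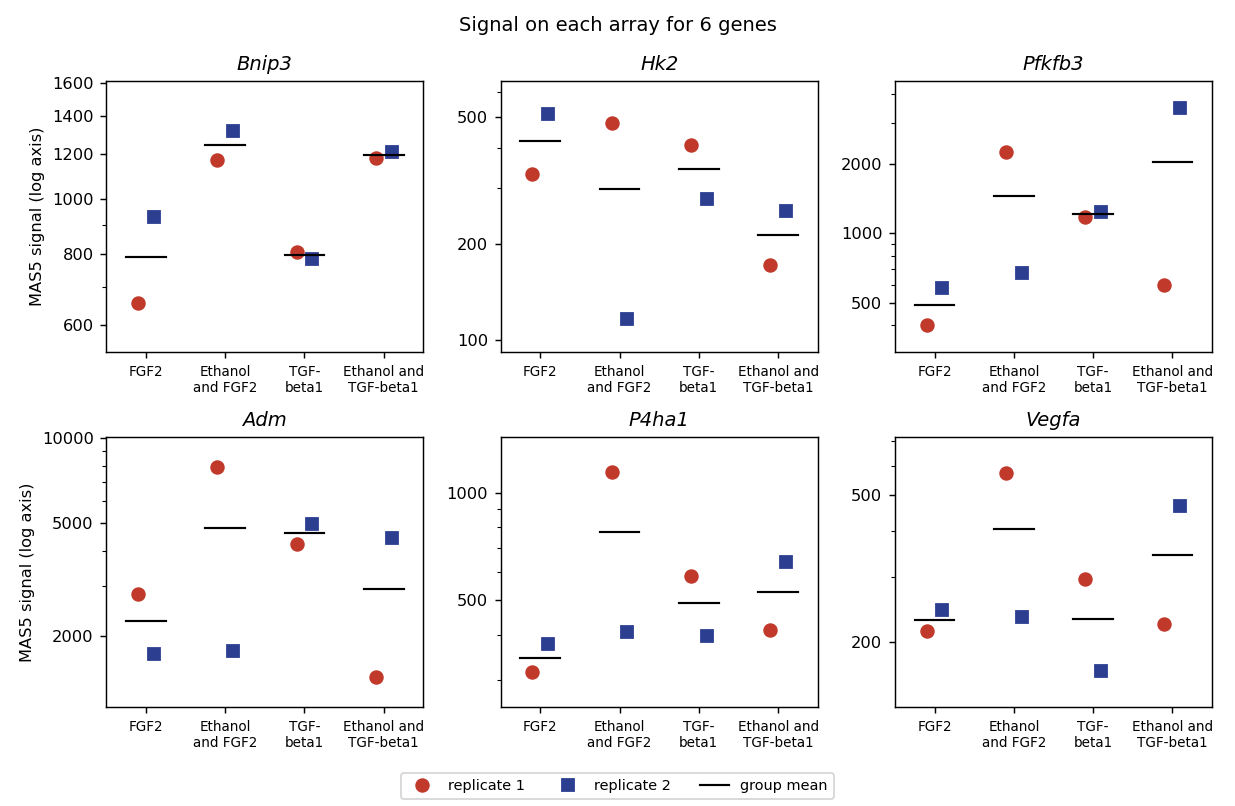
MAS5 signal (log axis) of Bnip3, Hk2, Pfkfb3, Adm, P4ha1 and Vegfa on each array, by labelled group, with circles for replicate 1, squares for replicate 2 and a line at the group mean. Bnip3 lies at 1169.9 or more on all 4 ethanol arrays and at 929 or less on the others, while the replicates of both ethanol groups lie far apart for Pfkfb3 and Adm.

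Glucose enters through Slc2a1 (the transporter Glut1) and is trapped by hexokinases. Slc2a1 was at 2057 and 5277 in FGF2, 4259.6 and 1934 in Ethanol and FGF2, 2244 and 1875 in TGF-beta1, and 1760.4 and 2305 in Ethanol and TGF-beta1. The highest array was FGF2 replicate 2 and the next Ethanol and FGF2 replicate 1, the other array of either group lay far lower, and the ethanol average was -0.11 ± 0.33 (-0.30 without the 2 ethanol arrays labelled replicate 1). Against FGF2 without ethanol, TGF-beta1 gave -0.68 ± 0.47, and all 3 probe sets of the gene lay below 0 there. FGF2 replicate 2 was the highest array for each of the 3 (5277, 4557 and 2016). With each array left out in turn, the difference ran from -1.35 to -0.0038.

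In the ethanol average Hk2 lay below 0 and the brighter of 2 Hk1 probe sets above it, without either gene passing. Within TGF-beta1 both genes lay below 0 (-0.63 for Hk2 and -0.29 for Hk1). Hk2, the inducible hexokinase, was at 332 and 509.7 in FGF2, 477 and 117 in Ethanol and FGF2, 408 and 277 in TGF-beta1, and 172 and 254 in Ethanol and TGF-beta1. Both TGF-beta1 arrays lay above both arrays with ethanol added, whereas in FGF2 the array for Ethanol and FGF2 replicate 1 lay between the controls. Its ethanol average of -0.67 ± 0.39 was the lowest of the list (adjusted p = 0.602 by limma). Without the 2 ethanol arrays labelled replicate 1 it was -1.01, with -1.64 within FGF2 and -0.38 within TGF-beta1, each from 1 ethanol array. Hk1, the constitutive hexokinase, was at 211 and 329.6 in FGF2, 388 and 528 in Ethanol and FGF2, 357 and 449.6 in TGF-beta1, and 291 and 358 in Ethanol and TGF-beta1. FGF2 without ethanol held its lowest array and FGF2 with ethanol its highest, and the log2 fold change within FGF2 was 0.73 ± 0.32 (unadjusted p = 0.0499, adjusted p = 0.601), and 0.94 ± 0.40 without the 2 ethanol arrays labelled replicate 1 (unadjusted p = 0.0537, adjusted p = 0.902). Within TGF-beta1 it was -0.29 ± 0.32 (-0.15 without them), and the other Hk1 probe set gave an average of -0.07 against 0.22 for the brighter one (0.39 without them).

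Phosphofructokinase, whose subunits are Pfkl, Pfkm and Pfkp, commits sugar to glycolysis, and Pfkfb3 makes the allosteric activator of that enzyme. Pfkfb3, on chromosome 2, was at 403 and 580.2 in FGF2, 2238 and 675 in Ethanol and FGF2, 1174 and 1242 in TGF-beta1, and 601 and 3466 in Ethanol and TGF-beta1. In each growth factor 1 ethanol array was far above the controls, and the other lay just above them in FGF2 and below them in TGF-beta1. Its ethanol average was 0.79 ± 0.53 (adjusted p = 0.675 by limma), the highest of the list, and its other probe set gave 0.60. Without the 2 ethanol arrays labelled replicate 1 it was 0.98 ± 0.21 (unadjusted p = 0.00329, adjusted p = 0.177).

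Pfkl, the liver-type subunit, shared that unevenness. It was at 277 and 271 in FGF2, 809 and 347 in Ethanol and FGF2, 546 and 382 in TGF-beta1, and 266 and 475 in Ethanol and TGF-beta1, with an ethanol average of 0.28 ± 0.30 (0.18 without the 2 ethanol arrays labelled replicate 1). Its probe sets disagreed, the other 2 giving -0.17 and 0.62. Pfkm, the muscle-type subunit, ran from 1498 to 2509, highest on the array for Ethanol and FGF2 replicate 1, with 0.20 ± 0.16. Pfkp, the platelet-type subunit, was dim, from 18.0 to 186, and within Ethanol and TGF-beta1 its arrays were at both of those ends.

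The enzymes from aldolase to pyruvate kinase showed little difference between groups for most members. For Pgk1 (phosphoglycerate kinase, on the X chromosome) the signal was 10086 and 12903 in FGF2, 11933 and 10989 in Ethanol and FGF2, 10466 and 13674 in TGF-beta1, and 10039 and 10968 in Ethanol and TGF-beta1. The groups overlapped throughout, and the ethanol average of -0.09 ± 0.17 had a 95% interval of -0.48 to 0.29. Its other 2 probe sets gave 0.24 and 0.13, so its sign depended on the probe set. The average was -0.07 ± 0.16 for Pgam1 (phosphoglycerate mutase), 0.03 ± 0.25 for Aldoc (-0.11 by its other probe set) and 0.03 ± 0.24 for Aldoa (aldolases), so for these 3 enzymes too a 2-fold change of the average lay outside the interval. Without the 2 ethanol arrays labelled replicate 1, Pgk1 had -0.09, Pgam1 -0.01, Aldoc -0.03 and Aldoa -0.07. Aldoa has 5 probe sets, all above 0 in the average (0.03 to 0.21).

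Tpi1 (triosephosphate isomerase) and Pkm (pyruvate kinase) lay lower in the array for Ethanol and TGF-beta1 replicate 1 than in any other. Tpi1 was at 3296 and 1870.4 in FGF2, 2640.0 and 1714 in Ethanol and FGF2, 4099.9 and 2739 in TGF-beta1, and 1369 and 2925 in Ethanol and TGF-beta1. All 3 of its probe sets were below 0 in the ethanol average (-0.50 to -0.34), and the brightest gave -0.48 ± 0.30 (adjusted p = 0.637 by limma). Pkm was at 4523 and 3597 in FGF2, 4317 and 4059 in Ethanol and FGF2, 5747 and 5186 in TGF-beta1, and 3042 and 5109 in Ethanol and TGF-beta1. Both ethanol arrays lay below both controls in TGF-beta1 (-0.47 ± 0.28), but without the 2 ethanol arrays labelled replicate 1 the difference was -0.10 ± 0.26. In FGF2 the ethanol arrays lay between the controls (0.05 ± 0.28, and 0.01 without replicate 1).

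Gapdh, the dehydrogenase often used as a loading reference, was read from 3 control probe sets along its transcript. The 3′ one was at 10458 and 16394 in FGF2, 17784 and 10872 in Ethanol and FGF2, 11668 and 17104 in TGF-beta1, and 9769 and 11021 in Ethanol and TGF-beta1. Added to the gene table, it gave an ethanol average of -0.18 ± 0.24 (adjusted p = 0.871 by limma). Dividing the 3′ by the 5′ Gapdh signal, which shows how whole the RNA is, gave 3.33 and 3.48 in Ethanol and FGF2 and 1.64 to 2.20 on the other 6 arrays. The same quotient for Actb did not set the group apart: it was 3.57 and 4.20 there and 2.35 to 3.61 on the others, with FGF2 replicate 2 at 3.61. The part of RNA integrity in the values of this group was not tested.

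Pyruvate goes to lactate through Ldha and back through Ldhb, and Pdk1 holds it out of the mitochondrion by inhibiting pyruvate dehydrogenase. Ldha was at 4664 and 5003 in FGF2, 6156 and 3585 in Ethanol and FGF2, 6779 and 5512 in TGF-beta1, and 2991 and 5853 in Ethanol and TGF-beta1. It was lowest on the array for Ethanol and TGF-beta1 replicate 1 and its ethanol average was -0.29 ± 0.25. Ldhb stayed between 2784 and 4400.4 on all arrays (0.02 ± 0.18, and -0.05 without the 2 ethanol arrays labelled replicate 1), with 3 further probe sets from 0.02 to 0.16. Pdk1 was at 1075 and 864 in FGF2, 989.9 and 1171 in Ethanol and FGF2, 1351 and 1024 in TGF-beta1, and 916 and 708 in Ethanol and TGF-beta1. Within TGF-beta1 both ethanol arrays lay below both controls (-0.53 ± 0.26, unadjusted p = 0.0717, adjusted p = 0.57), but the 3 other Pdk1 probe sets lay above 0 there (0.02 to 0.26).

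Among the secreted factors, Adm (adrenomedullin, a vasodilator peptide) varied more than 5-fold between arrays. It was at 2805 and 1725 in FGF2, 7902 and 1767 in Ethanol and FGF2, 4240.2 and 4992 in TGF-beta1, and 1429 and 4427 in Ethanol and TGF-beta1. The highest array of all was labelled Ethanol and FGF2 replicate 1 and the lowest Ethanol and TGF-beta1 replicate 1, those on which Fn1 went against the label. Its ethanol average was -0.05 ± 0.49, or -0.18 ± 0.24 without those 2 arrays, and its dimmer probe set gave -0.40. Vegfa, the vascular endothelial growth factor, was at 215 and 244 in FGF2, 573 and 233 in Ethanol and FGF2, 296 and 166 in TGF-beta1, and 224 and 465 in Ethanol and TGF-beta1. In each growth factor 1 ethanol array was above both controls and the other between them, and the average was 0.56 ± 0.35 (adjusted p = 0.627 by limma), with 0.48 from the other probe set.

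The oxygen sensors Egln1 and Egln3, prolyl hydroxylases that act on HIF, had ethanol averages of 0.08 ± 0.21 and 0.06 ± 0.23, or -0.08 and 0.23 without the 2 ethanol arrays labelled replicate 1. Egln1 ran from 1405 to 2441 and Egln3 from 247 to 485, with groups that overlapped in the average. P4ha1, a catalytic subunit of the enzyme that hydroxylates collagen, was at 315 and 378 in FGF2, 1140.0 and 409 in Ethanol and FGF2, 585 and 398 in TGF-beta1, and 414 and 642 in Ethanol and TGF-beta1. Both ethanol arrays lay above both controls in FGF2 (0.94 ± 0.46, adjusted p = 0.645 by limma), but the difference came to 0.23 without the 2 ethanol arrays labelled replicate 1, and the other probe set gave 0.12. P4ha2, its sister subunit, lay below the filter at 1.37 to 91.7.

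Higd1a, a mitochondrial protein induced in hypoxia, was the 1 gene with an unadjusted p under 0.05 in the interaction. Its brightest probe set was at 1560.3 and 1400.1 in FGF2, 1801 and 1659 in Ethanol and FGF2, 2646 and 1949.8 in TGF-beta1, and 1407 and 1704 in Ethanol and TGF-beta1. Ethanol arrays lay above the controls in FGF2 and below them in TGF-beta1, with an interaction of -0.77 ± 0.33 (unadjusted p = 0.0476, adjusted p = 0.831 by limma). Without the 2 ethanol arrays labelled replicate 1 it was -0.57 ± 0.39 (unadjusted p = 0.189, adjusted p = 1), and no longer under 0.05 even before adjustment. Both other Higd1a probe sets had interactions above 0 (0.72 and 1.02), so the direction depended on the probe set. Within TGF-beta1 the brightest one gave -0.55 ± 0.24 (unadjusted p = 0.0467, adjusted p = 0.524 by limma). Without the 2 ethanol arrays labelled replicate 1 that difference was -0.41 and its unadjusted p was no longer under 0.05. Both other probe sets lay above 0 there with all arrays (0.42 and 0.22).

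Ddit4, a stress-induced inhibitor of the growth kinase mTOR, was at 13865 and 12327 in FGF2, 28229.5 and 13937 in Ethanol and FGF2, 13243 and 19109 in TGF-beta1, and 12801 and 16202 in Ethanol and TGF-beta1. Only the array for Ethanol and FGF2 replicate 1 stood clear of the rest, and the average was 0.23 ± 0.25, or 0.06 ± 0.24 without the 2 ethanol arrays labelled replicate 1. Mxi1, a repressor that opposes Myc, was at 4655 and 3052 in FGF2, 4612 and 4266 in Ethanol and FGF2, 3667 and 4140.0 in TGF-beta1, and 4039 and 4176 in Ethanol and TGF-beta1, and gave 0.15 ± 0.17. Ndrg1 (8.96 to 92.6 on its brightest probe set) and Ankrd37 (6.73 to 110.1), both induced by hypoxia elsewhere, were too dim to test.

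**Figure D3:**
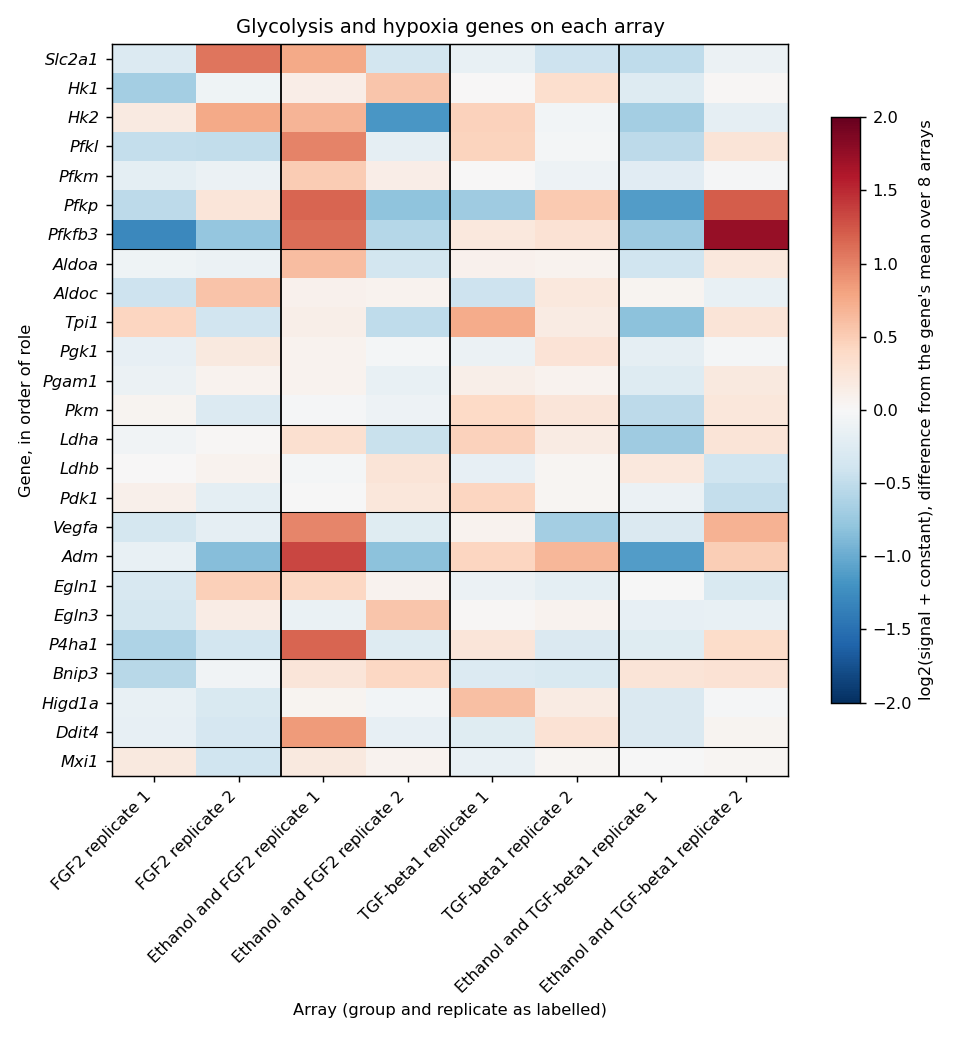
Colour gives log2(signal + 23.68) of each of the 25 genes (rows, ordered by role) on each array (columns, by labelled group) as the difference from the gene's own mean over the 8 arrays. The array labelled Ethanol and FGF2 replicate 1 is high in many rows, with a median difference of 0.32, and that labelled Ethanol and TGF-beta1 replicate 1 is low, with a median of -0.29.

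The arrays of an ethanol group differed from each other across the list. In Ethanol and FGF2, replicate 1 was the higher array for 20 of the 25 genes (52.1% of all genes tested), and 9 genes were more than 2-fold apart (13% of all genes). These 9 were Slc2a1, Hk2, Pfkl, Pfkp, Pfkfb3, Vegfa, Adm, P4ha1 and Ddit4, all with replicate 1 higher. In Ethanol and TGF-beta1 the order was turned: replicate 1 was the higher array for 4 of 25 (49.4% of all genes), and Pfkp, Pfkfb3, Tpi1 and Adm were more than 2-fold apart (6.33% of all genes), with replicate 1 lower. Without ethanol, replicate 1 was the higher array for 9 of 25 in FGF2 (51% of all genes) and for 15 of 25 in TGF-beta1 (48.6%). The median size of the difference there was 0.355 and 0.297 log2 units, against 0.366 and 0.26 over all genes, and in the ethanol groups it was 0.616 and 0.462, against 0.416 and 0.251. Fn1 went against the label on both replicate 1 arrays; its part in these differences was not tested.

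**Figure D4:**
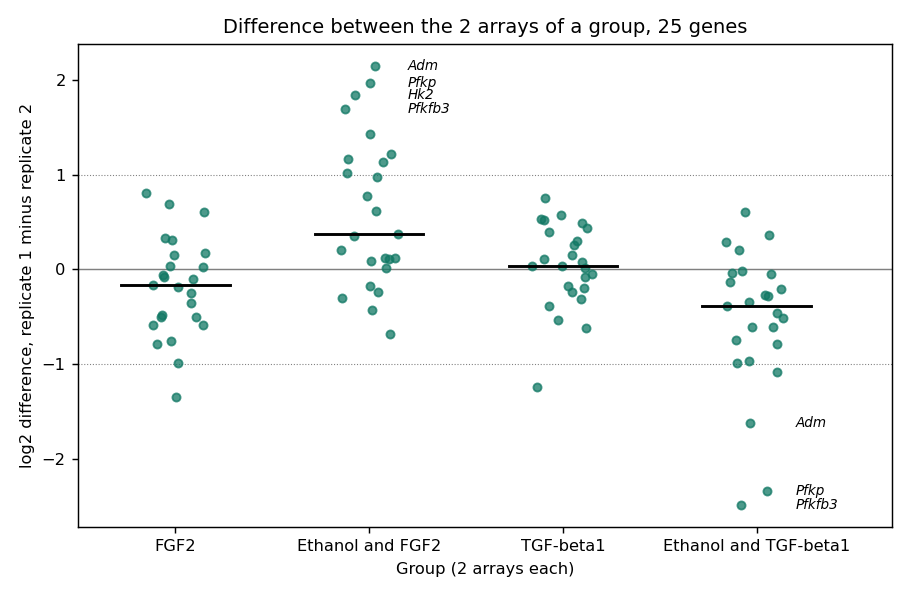
Difference between the 2 arrays of each group (replicate 1 minus replicate 2, log2 scale) for the 25 genes, with 1 point a gene, a line at the median and dotted lines at a 2-fold difference. The medians are -0.17 in FGF2, 0.37 in Ethanol and FGF2, 0.04 in TGF-beta1 and -0.38 in Ethanol and TGF-beta1.

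The next question was whether the ethanol difference depended on the growth factor. Within FGF2, 19 of 25 genes lay above 0 (median 0.23, against 0.05 over all genes), and within TGF-beta1 18 of 25 lay below 0 (median -0.14, against -0.01). Of all genes tested, 55.5% lay above 0 within FGF2 and 49.2% within TGF-beta1. Both ethanol arrays lay above both controls for 8 genes within FGF2 and below them for 0, where 32% of all genes did not overlap (19.3% higher and 12.8% lower). Within TGF-beta1 they lay above for 1 gene and below for 5, where 47.9% of all genes did not overlap (22.2% higher and 25.7% lower). The interaction was below 0 for 22 of 25 and above 0 for 3, where 44.9% of all genes tested lay above. Its median was -0.50 against -0.07 over all genes tested. Without the 2 ethanol arrays labelled replicate 1 the interaction was below 0 for 14 of 25 and above 0 for 11, where 45.8% of all genes lay above. Its median was then -0.07 against -0.05 over all genes, and the medians within FGF2 and TGF-beta1 were 0.02 and -0.04. Each of these comparisons then has 1 ethanol array in a group, assumed to vary like the others.

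TGF-beta1 was then set against FGF2 without ethanol, where Fn1 followed the labels on all 4 arrays. Of the 25 genes 19 lay above 0, where 52.5% of all genes tested did, with a median of 0.15 against 0.02 over all genes tested. Both TGF-beta1 arrays exceeded both FGF2 arrays for 11 genes and lay below them for 0, where 36.2% of all genes did not overlap, 20.4% higher and 15.8% lower. The 11 were Hk1, Pfkl, Pfkm, Pfkfb3, Aldoa, Pgam1, Pkm, Ldha, Adm, P4ha1 and Higd1a. Of these, 8 are enzymes of glycolysis or lactate production or, for Pfkfb3, their regulator. Among all 25 genes tested, 16 belong to glycolysis and pyruvate metabolism. None passed: Higd1a had 0.61 ± 0.24 (unadjusted p = 0.0296, adjusted p = 0.98 by limma), although both its other probe sets lay below 0. Pfkfb3 had 1.28 ± 0.75, Adm 1.06 ± 0.69, Pfkl 0.69 ± 0.43, Hk1 0.56 ± 0.32 and Pkm 0.43 ± 0.28, each with an adjusted p of 0.982. These SEs pool the spread within all 4 groups, the 2 ethanol arrays labelled replicate 1 included. Leaving out those 2 arrays kept these fold changes as they are. The SE was then 0.25 for Pfkfb3, 0.28 for Adm, 0.29 for Pfkl, 0.32 for Hk1 and 0.21 for Pkm. With ethanol, 23 of 25 lay below 0 for TGF-beta1 against FGF2 (median -0.19, against -0.04 over all genes), where 45.6% of all genes lay above. Without the 2 ethanol arrays labelled replicate 1 that turned to 15 of 25 above 0 (median 0.25), where 46.1% of all genes lay above. These comparisons share arrays with the ethanol comparisons.

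Other genes of the pathway were read from a list of 79, of which 60 were tested. By limma 0 of the 60 passed in any of the 6 comparisons, and 7 (11.7%) had an unadjusted p under 0.05 in the ethanol average, near the 10.8% of all genes tested. Within FGF2 these were 5 (8.33%, against 8.3% of all genes), within TGF-beta1 7 (11.7%, against 9.48%) and in the interaction 3 (5%, against 4.43%). For TGF-beta1 against FGF2 they were 8 in the absence of ethanol (13.3%, against 4.97%) and 3 in its presence (5%, against 2.64%). The median of the average was 0.12, against 0.03 over all genes tested. Of the 60, 38 (63.3%) lay above 0, against 54% of all genes. Of the HIF subunits and regulators, 7 of 8 lay above 0 (median 0.24). Hif1a, the oxygen-regulated subunit, had signals from 9048 to 15521 and an average of 0.26 ± 0.22, and Epas1, the related HIF subunit, had 365 to 619 and -0.33 ± 0.20.

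The 3 smallest p-values in the average belonged to Rora, Arnt2 and Kdm3a. Rora, a nuclear receptor, was at 381 and 435 in FGF2, 838 and 586 in Ethanol and FGF2, 411 and 317 in TGF-beta1, and 713 and 741 in Ethanol and TGF-beta1. All ethanol arrays lay above all others, with 0.86 ± 0.20 (adjusted p = 0.0741 by limma). Arnt2, a HIF partner subunit of the brain, was at 549 and 749, 848 and 1167, 504 and 657, and 848 and 1125 in the same order of groups, with 0.68 ± 0.21 (adjusted p = 0.212), and Kdm3a, a hypoxia-induced histone demethylase, lay at 2071 to 3109 with ethanol and 1653 to 2024 without it, with 0.46 ± 0.14 (adjusted p = 0.229). Of 14 further glycolytic and carrier genes tested 10 lay above 0 (median 0.07), of 10 genes of pyruvate dehydrogenase and its regulators 6 (median 0.08), and of 28 other hypoxia genes 15 (median 0.12). Car9, a carbonic anhydrase widely used as a hypoxia marker, was at 1.80 to 41.8 and was not tested.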

How the data were processed

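The authors deposited MAS5 and GCOS signals, linear intensities for each probe set, per the submitters' processing notes (versions not given in the sources used here), with each array's 2% trimmed mean at 500. Of 45101 probe sets, 34945 outside the controls carried exactly 1 symbol, and a gene was read from its brightest one. To each signal 23.68 was added, which is percentile 25 of all signals, before taking log2. Genes below percentile 40 of the mean were not tested. The test was limma 3.58.1 in R 4.3.3 with 4 group means over 8 arrays, a trended prior, 4 residual degrees of freedom and Benjamini-Hochberg adjustment over 10916 genes. It was tried on simulated data with the same spread for every gene, for the ethanol average. There it recovered 62.5% of log2 changes of 1 and 100% of log2 changes of 2, with 8 false calls. The number of arrays limits precision. The members and lists were chosen with earlier results of these data known. Signals on every array are given by rule for members whose ethanol arrays do not overlap the others and, in each role, for those with the smallest p in the ethanol average and in TGF-beta1 against FGF2. From the other pathway genes, the 3 with the smallest p are named. Slc2a1, Pfkl, Pfkfb3, Pgk1, Gapdh, Ddit4, Hif1a, Epas1 and Car9 were chosen after their values were seen. Positions and promoters are RefSeq's (GRCm38.p6). The alternatives tried were other constants, filters and normalization, the mean of probe sets, no trend, a replicate block and left-out arrays.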

Additional observations from a re-analysis of the deposited data

How the results depend on the processing

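No gene of the list passed the threshold in any of the 6 comparisons by limma under any alternative run. Gapdh, added after seeing the data, was fitted under the main settings alone and did not pass either. Medians over the list moved by more than the spread of the median between replicates (SD 0.206 log2 units) in 3 comparisons. For the interaction (-0.50) the median was -0.30 with no filter, -0.23 with the mean of all probe sets and -0.066 without both ethanol arrays labelled replicate 1, and it ran from -0.74 to -0.13 with each array left out in turn. For TGF-beta1 against FGF2 in the presence of ethanol (-0.19) it was 0.25 without both arrays and ran from -0.49 to -0.00158 with 1 array left out. Within FGF2 (0.23) it ran from 0.057 without Ethanol and FGF2 replicate 1 to 0.48 without FGF2 replicate 2. Smaller shifts than that SD still changed other medians by over 1.5 times. Within TGF-beta1 (-0.14) the median was -0.05 with the mean of all probe sets, -0.04 without Ethanol and TGF-beta1 replicate 1 and -0.33 without replicate 2. For TGF-beta1 against FGF2 in the absence of ethanol (0.15) it was 0.28 under the filter at percentile 60 and 0.25 without FGF2 replicate 2. The ethanol average (0.03) was -0.03 without both arrays and ran from -0.03 to 0.18 with 1 array left out, so it has no settled sign.

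Counts over all genes depended more on the settings. In the ethanol average 217 genes became 119 under the filter at percentile 60, 92 without TGF-beta1 replicate 1, 130 without Ethanol and TGF-beta1 replicate 1 and 0 without the pair of arrays (where limma gave 1150 genes an unadjusted p under 0.05). Within TGF-beta1 130 became 75 under that filter, 85 with the mean of all probe sets, 78 without a trend and 0 without both of those arrays (940 unadjusted). With 1 array left out it became 0 without either array of TGF-beta1 alone, 0 without the first array of the ethanol group and 67 without its second. Within FGF2 0 became 29 with no filter or with quantile normalization, 3 under the stricter filter, 76 without FGF2 replicate 2, 15 without either array of Ethanol and TGF-beta1 and 1 without FGF2 replicate 1. Without both of those arrays, 0 became 5 for TGF-beta1 against FGF2 in the absence and 2 in the presence of ethanol. The cause was not tested.

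The labels do not say that a replicate number marks a shared batch, and the numbers were not taken to pair the arrays. Differences between replicates correlated at 0.466 between FGF2 and TGF-beta1 and at -0.438 between the ethanol groups. Between the other groups they correlated from -0.132 to 0.0457. The median signal in FGF2 and TGF-beta1 was 50.66 and 50.62 for replicate 1, and 86.49 and 80.68 for replicate 2. Whether same-numbered arrays share a batch was not tested. The replicate block cannot change a fold change in this balanced design (the interaction median is -0.50 by construction) and bears on the errors alone. With it the calls over all genes went from 217 to 179 in the average and from 130 to 0 within TGF-beta1 (1026 unadjusted). No detection calls were used, so the presence of dim genes cannot be judged.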

Other observations

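Plod1, Pgm2l1 and Slc16a1, from the list of other pathway genes, are described here after their values were seen. Plod1, a collagen lysyl hydroxylase, was at 1235 and 1217 in FGF2 and at 2586 and 2285 in TGF-beta1, and TGF-beta1 against FGF2 gave 0.97 ± 0.22 (unadjusted p = 0.0016, adjusted p = 0.98 by limma). Pgm2l1, a sugar phosphate enzyme, was at 144 and 236 in FGF2 and at 64.9 and 46.4 in TGF-beta1. Slc16a1, a lactate carrier, was at 1882 and 2098 in FGF2, 3585 and 3998 in TGF-beta1, 6292 and 1579 in Ethanol and FGF2, and 1848 and 5059 in Ethanol and TGF-beta1 (replicates 1 and 2). None of the 3 passed the threshold.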
